A study of Mus musculus with 96 samples.

Results

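The 10 genes described here are expressed in cerebellar Purkinje cells and are commonly used to mark them: Calb1, Pcp2, Pcp4, Itpr1, Rgs8, Ppp1r17, Aldoc, Plcb3, Plcb4 and Slc1a6. They were taken by name from a list and matched to the Ensembl identifiers of both deposited tables. All 10 were found among the 39179 genes listed, and all 10 passed the filter on low counts in every fit.

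Purkinje cells are the sole output neurons of the cerebellar cortex and inhibit the cerebellar nuclei. They receive glutamate from granule neurons and climbing fibres, and glutamate there drives a cascade of G protein, phospholipase C beta and the IP3 receptor that releases calcium from stores. They also fall into stripes. Zebrin-positive stripes are defined by aldolase C (zebrin II, encoded by Aldoc) and hold Plcb3 and the glutamate transporter gene Slc1a6 at high levels, whereas zebrin-negative stripes hold Plcb4. Aldoc is also expressed by astrocytes, and Itpr1 and Pcp4 by other neurons, so none of the sums measured in whole tissue belongs to Purkinje cells alone.

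The series profiled messenger RNA from flash-frozen cerebellum of C57BL/6 mice, 96 libraries in all, to ask how CAG repeat length in Htt, the Huntington disease gene, relates to expression. Mice were heterozygous for a knock-in Htt allele of 20, 50, 92 or 140 CAG (Q20, Q50, Q92, Q140) or wild type, aged 6 or 10 months, and of both sexes. Wild types came from cages of Q20 mice or from cages of Q50 mice, while Q92 and Q140 mice were housed with their own genotype. Each of the 12 groups by genotype, cage and age held 8 libraries, 4 of each sex. Every knock-in mouse kept a wild-type Htt allele, and the expanded allele was expressed from its own locus, not from a promoter restricted to Purkinje cells. Whether the 8 libraries of a group are 8 animals is not stated, so p-values measure the spread between these libraries, which may in part be technical. The leading numbers in the library names did not overlap between the ages, so age cannot be told apart from what those numbers mark.

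Library totals ran from 29957797 to 39477325 estimated counts. The tissue label was checked against its markers: granule neuron genes Gabra6, Cbln3 and Neurod1 averaged 288, 338 and 148 FPKM (fragments scaled to transcript length and library size), beside 455 FPKM for Pcp2. The choroid plexus gene Ttr averaged 562 FPKM. Of the 96 libraries, 8 stood apart on the first principal component of their age, by more than 4 median absolute deviations: 7 at 6 months and 1 at 10 months. At 6 months they were Q140 female 4, Q20 female 4, Q20 male 4, Q50 female 3, Q50 male 2, a wild-type female (number 1) of the Q50 cages and a wild-type male (number 4) of the Q20 cages. The library at 10 months was Q92 female 2. These 8 held 6.9% to 12.7% of their counts in mitochondrial genes, against 6.3% to 8.13% in the other 88. Within them Itpr1 lay below all libraries of the group that were not far in 7 of 8 (median log2 deviation −0.82), Rgs8 in 7 of 8 (−0.45) and Plcb4 in 8 of 8 (−0.42). Pcp2 lay above the same libraries in 7 of 8 (0.46), Pcp4 in 6 of 8 (0.45) and Aldoc in 7 of 8 (0.20). Values without these libraries are given beside those they moved most.

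Promoter windows from RefSeq (GRCm38.p6, 250 bases before to 50 after a transcript start) were matched for 7 of the 10 genes, and Calb1, Itpr1 and Ppp1r17 had no entry. Those of Pcp2, whose promoter is widely used to drive genes in Purkinje cells, and of the stripe pair Aldoc and Plcb4 are shown (where a gene had several windows, the most upstream) 5′ to 3′ on the gene's own strand. Capitals mark AGGTCA, the core bound by ROR nuclear receptors such as Rora, in Pcp2, and GGGCGG, the GC box, in Aldoc and Plcb4, each as read on that strand. Both motifs were searched on both strands, and overlapping matches were counted.
Pcp2: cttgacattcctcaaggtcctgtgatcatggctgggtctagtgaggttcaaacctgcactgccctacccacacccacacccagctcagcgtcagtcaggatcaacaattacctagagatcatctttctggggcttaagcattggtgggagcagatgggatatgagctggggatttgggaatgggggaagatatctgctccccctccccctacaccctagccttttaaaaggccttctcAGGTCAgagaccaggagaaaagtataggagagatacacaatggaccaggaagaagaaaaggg
Aldoc: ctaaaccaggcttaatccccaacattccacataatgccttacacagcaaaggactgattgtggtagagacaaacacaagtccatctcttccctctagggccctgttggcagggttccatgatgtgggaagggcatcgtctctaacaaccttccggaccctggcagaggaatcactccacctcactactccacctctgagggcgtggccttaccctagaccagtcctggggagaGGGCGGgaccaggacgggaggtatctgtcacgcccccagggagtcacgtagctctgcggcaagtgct
Plcb4: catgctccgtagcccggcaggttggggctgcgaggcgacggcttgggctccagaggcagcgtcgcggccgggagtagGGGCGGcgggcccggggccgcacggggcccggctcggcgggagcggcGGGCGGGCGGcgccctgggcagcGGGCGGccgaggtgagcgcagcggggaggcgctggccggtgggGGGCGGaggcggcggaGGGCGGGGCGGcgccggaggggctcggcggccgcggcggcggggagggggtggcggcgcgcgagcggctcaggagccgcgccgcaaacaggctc
The Pcp2 window (chr8:3625498-3625797, minus strand) held 1 AGGTCA and no GC box. The Aldoc window (chr11:78322823-78323122, plus strand) held 1 GC box, and the Plcb4 window (chr2:135659297-135659596, plus strand) held 7, some of them overlapping. The more downstream windows of Aldoc and Plcb4, not shown, held no GC box, at a GC content of 53.3% and 44.3%. AGGTCA was present in 16.3% and GGGCGG in 35.7% of the 32851 windows in the table. The windows of Slc1a6 and of Plcb3 held 6 GC boxes each, and those of Pcp4 and Rgs8 none. AGGTCA was not particular to Pcp2: the windows of Pcp4 and Plcb3 and the most downstream one of Rgs8 also held 1 each. Those of Aldoc, Plcb4 and Slc1a6 held none. GC content was 84.0% in the Plcb4 window, 56.3% in that of Aldoc and 51.0% in that of Pcp2, against a median of 52.7% over all windows. These matches describe the letters only; the series holds no measurement of binding.

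Levels per length were compared on the deposited FPKM scale, as means ± SD over the 96 libraries. Aldoc, a glycolytic enzyme, was highest at 889 ± 98.5 FPKM. Pcp4, a small calmodulin-binding protein, stood at 533 ± 100 and Pcp2, a modulator of inhibitory G proteins, at 455 ± 101 FPKM. Itpr1, the IP3 receptor of the endoplasmic reticulum, stood at 410 ± 83.9 FPKM. Means of neighbours from Pcp4 to Itpr1 lay within 1 SD of each other. Rgs8, which speeds GTP hydrolysis by G proteins, and Calb1, the calcium buffer calbindin, followed at 255 ± 36.0 and 229 ± 26.4 FPKM, also within 1 SD. Ppp1r17, a phosphatase inhibitor that is a substrate of cGMP-dependent kinase, stood at 125 ± 14.4 FPKM. Plcb4 stood at 104 ± 5.68, Slc1a6 at 75.6 ± 9.56 and Plcb3, the other phospholipase C beta of these cells, at 16.1 ± 1.75 FPKM. Of 17384 expressed genes, 9 of the 10 lay above the 95.4th percentile or at it, and Plcb3 at the 70.3rd.

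Spread within groups of genotype, cage and sex (4 libraries each) differed widely between the genes and between the ages. On the log2 CPM scale (counts scaled to library size), Itpr1 had a within-group SD of 0.431 at 6 months and 0.194 at 10 months. For Plcb4 the SDs were 0.193 and 0.096, and for Aldoc 0.127 and 0.141. Among 6447 well-expressed genes (mean log2 CPM above 5) the median SD was 0.128 and 0.094. The 10 genes therefore varied more than the median gene at both ages, except Aldoc at 6 months.

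**Figure D1:**
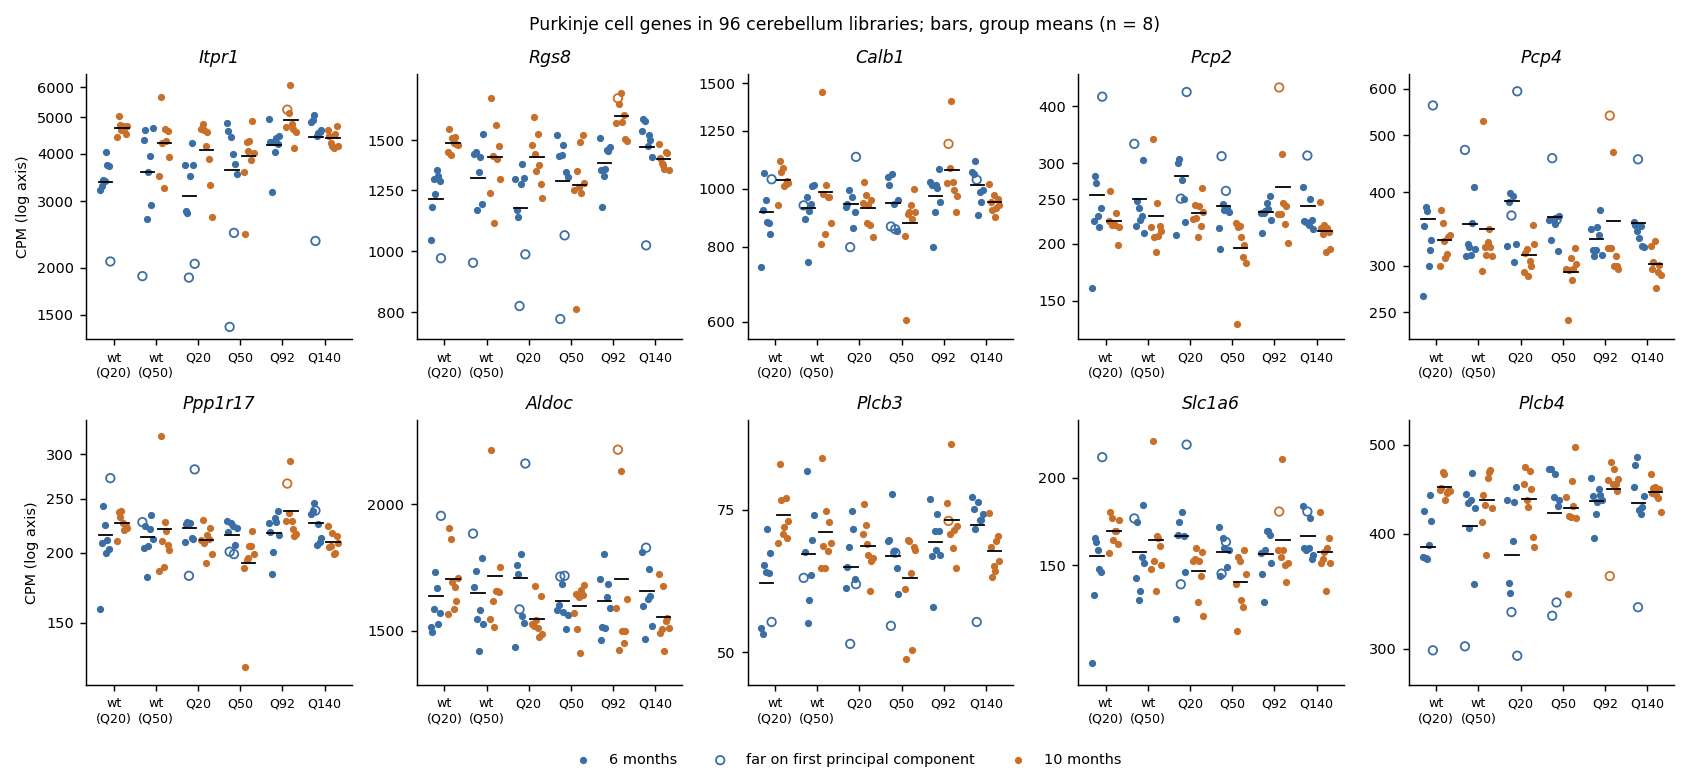
CPM (log axis) of each gene in all 96 libraries, by genotype and cage (wt (Q20) and wt (Q50), wild types of the Q20 and Q50 cages) and age; black bars are group means (n = 8) and open circles the 8 far libraries. The open circles at 6 months lie at or near the bottom for Itpr1, Rgs8 and Plcb4 and, for most of them, at the top for Pcp2 and Pcp4.

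Q140 against Q20 at 6 months compares a long repeat with a short one among knock-in mice. Q20 and Q50 mice shared cages with wild types, whereas Q92 and Q140 mice were housed with their own genotype. Repeat length therefore cannot be told apart from housing in the Q140 and Q92 comparisons or in the trend over CAG length. None of the 10 genes was called in edgeR (adjusted p under 0.05 over all genes), where 28 of 17120 genes were called (0.164%). At an unadjusted p under 0.05 there were 4 of the 10, and 23.2% of all genes. In this and every other genotype, repeat-length, sex and interaction comparison, DESeq2 and limma also called 0 of the 10. The median log2 difference was 0.07 over the 10 genes and −0.01 over all genes tested.

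Itpr1 had the greatest log2 difference of the 10. Its CPM ran from 1883 through a median of 3159 to 4260 in Q20 and from 2353 through 4593 to 5063 in Q140. In 7 of 8 Q140 libraries it was above the highest Q20 library; the eighth, Q140 female 4, is one of the far libraries. The log2 difference was 0.51 ± 0.19 (SE; adjusted p = 0.157). Rgs8 showed the same arrangement, with 818, 1221 and 1373 CPM (lowest, median, highest) in Q20 and 1021, 1515 and 1623 in Q140, again with 7 of 8 above the highest Q20 and Q140 female 4 below. Its log2 difference was 0.32 ± 0.11 (adjusted p = 0.13).

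Both phospholipase genes gave values of like size. Plcb4 ran from 295 through 373 to 450 CPM in Q20 and from 333 through 434 to 485 in Q140, and 3 of 8 Q140 libraries exceeded the highest Q20. Its log2 difference was 0.19 ± 0.09, and that of Plcb3 was 0.17 ± 0.08 (adjusted p = 0.199 for each). Calb1 differed by 0.10 ± 0.07 (adjusted p = 0.318). Ppp1r17, Slc1a6 and Aldoc lay between −0.04 and 0.03. Pcp2 and Pcp4 had values below 0, −0.21 ± 0.13 (adjusted p = 0.283) and −0.12 ± 0.11 (adjusted p = 0.473), with 7 of 8 Q140 libraries below the Q20 mean for each.

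Which libraries entered decided these calls. Without the 7 far libraries of that age, 1131 genes were called (6.63%), among them Itpr1 at 0.44 (adjusted p = 0.0197) and Rgs8 at 0.28 (adjusted p = 0.0123), and no other of the 10. Without Q140 female 4 alone, 834 genes were called (4.85%), among them Itpr1 at 0.60 (adjusted p = 0.0472) and Rgs8 at 0.38 (adjusted p = 0.0375), and again no other of the 10. That library was the lowest of the Q140 libraries for both genes. Leaving it out was therefore bound to raise both differences, and no conclusion is drawn from these calls. Markers of other cells differed too: 3 of 12 oligodendrocyte genes were called lower in Q140 (median −0.36; mean log2 CPM over the list 6.74 to 7.20 in Q140 and 6.84 to 7.82 in Q20), and all 10 choroid plexus genes had values below 0 (median −3.28, 0 called; list means −0.15 to 2.97 and −0.03 to 4.93). The part of these cells in the Purkinje gene values was not tested. In bulk tissue, fewer cells of a type and less RNA per cell cannot be told apart.

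Q140 against wild types of both kinds of cage at 6 months used the same Q140 libraries. None of the 10 was called (background 0.234%), although 4 had an unadjusted p under 0.05, as had 9.65% of all genes. Values ran from −0.06 for Pcp2 to 0.35 ± 0.16 for Itpr1 (adjusted p = 0.451), with 0.22 ± 0.09 for Rgs8 (adjusted p = 0.358) and 0.18 ± 0.07 for Plcb3 (adjusted p = 0.312). Without the far libraries 292 genes were called (1.71%), with Itpr1 at 0.35 (adjusted p = 0.0264) and Rgs8 at 0.23 (adjusted p = 0.0088) among them. Without Q140 female 4 alone, none of the 10 was called (background 0.442%). Against the same wild types 3 of 12 oligodendrocyte genes were called lower (median −0.29), and the 10 choroid plexus genes had a median of −3.40 with 0 called; their part was not tested.

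At 10 months the Q140 and Q20 values lay within 0.13 of 0 on the log2 scale for all 10 genes. None was called, against a background of 1.99% (339 of 17026 genes). None had an unadjusted p under 0.05, against 13.8% of all genes. Values ran from −0.13 ± 0.11 for Pcp2 to 0.10 ± 0.10 for Itpr1, 5 of 10 were above 0, and adjusted p was at least 0.639. Rgs8 gave −0.01 ± 0.08, with an interval of 2 SE from −0.17 to 0.15. Q140 libraries were tightly grouped there, from 4154 through 4368 to 4730 CPM for Itpr1 and from 1345 through 1392 to 1477 for Rgs8. In the same comparison 7 of 12 oligodendrocyte genes were called lower (median −0.44).

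The difference between the ages in the Q140 and Q20 contrast was tested as an interaction. None of the 10 was called and no gene at all was (0%), with 897 genes, or 5.16%, at an unadjusted p under 0.05, and DESeq2 called 2 genes. Rgs8 gave −0.33 ± 0.13 (adjusted p = 0.791) and was the only one of the 10 at an unadjusted p under 0.05. Itpr1 gave −0.41 ± 0.21 (adjusted p = 0.791). Leaving out the far libraries gave −0.29 for Rgs8 and −0.34 for Itpr1 (adjusted p = 0.628 for each). The larger values at 6 months were thus not shown to differ from those at 10 months. Against wild types at 10 months (background 0.452%), Q140 values ran from −0.17 for Pcp4 to 0.01 for Plcb4, 9 of 10 were below 0, and the lowest adjusted p was 0.765.

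Q92 and Q20 were compared in the same way, and these comparisons share the Q20 libraries with the previous ones. At 6 months none of the 10 was called (background 0.0117%), with 3 at an unadjusted p under 0.05, against 24.7% of all genes. Itpr1 gave 0.45 ± 0.19 (adjusted p = 0.165) and Rgs8 0.24 ± 0.11 (adjusted p = 0.175), while Pcp2 gave −0.26 ± 0.13 and Pcp4 −0.21 ± 0.11. All 8 Q92 libraries lay above the Q20 mean for Itpr1 and Rgs8 and below it for Pcp2 and Pcp4. No Q92 library of that age was among the far libraries, whereas Q20 held 2. With both left out, and the other far libraries of that age, the values were 0.28 for Itpr1 (adjusted p = 0.253), 0.13 for Rgs8 (adjusted p = 0.278), −0.15 for Pcp2 and −0.09 for Pcp4, again with none of the 10 called (background 0.0117%).

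At 10 months all 10 genes had values above 0 in Q92 relative to Q20, from 0.04 for Plcb4 to 0.26 for Itpr1, with a median of 0.18 against 0.00 over all genes. None was called (background 0.2%), and 5 had an unadjusted p under 0.05, against 16.1% of all genes. Rgs8 ran from 1214 through 1398 to 1631 CPM in Q20 and from 1496 through 1624 to 1785 in Q92, where all 8 libraries were above the Q20 mean and 4 above the highest Q20. Its log2 difference was 0.22 ± 0.08 (adjusted p = 0.161). Itpr1 differed by 0.26 ± 0.10 (adjusted p = 0.186) and Calb1 by 0.21 ± 0.08 (adjusted p = 0.195), with Calb1 at 830, 942 and 1025 CPM in Q20 and 916, 1026 and 1399 in Q92. All 12 granule neuron genes had values below 0 (median −0.15; list means 7.94 to 9.05 in Q92 and 8.87 to 9.11 in Q20), and so did all 12 oligodendrocyte genes (median −0.28). The lowest granule list mean was that of Q92 female 2, the far library, in which 12 of 12 granule genes lay below the rest of the group (median −1.05) and 10 of 10 choroid plexus genes above it (4.17). Of all 17384 expressed genes, 38.4% lay below the rest of the group in that library and 36.2% above it. The part of these other cells in the Purkinje gene values was not tested. Without that library all 10 values were still above 0 and none was called (background 0.193%), but the median was 0.12, with 0.05 for Pcp2, 0.09 for Pcp4 and 0.06 for Aldoc in place of 0.18, 0.19 and 0.13, and 0.25 for Itpr1 and 0.20 for Rgs8.

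Another pair of libraries at 10 months stood apart in the Purkinje genes without being among the far libraries, and both were in the Q50 cages. In Q50 female 2, 9 of the 10 genes lay below every other library of the group (median log2 deviation −0.48), together with 24 of 29 other Purkinje cell genes. Its oligodendrocyte genes were above the rest in 11 of 12 (0.61) and its granule genes below in 10 of 12 (−0.40). In wild-type female 2 of the Q50 cages, 9 of the 10 lay above the rest (0.52), with 22 of 29 other Purkinje cell genes. There the oligodendrocyte genes were below the rest in 9 of 12 (−0.76), as were 10 of 12 granule genes (−0.28). Of all 17384 expressed genes, 21.1% lay below the rest in the first and 22.5% above the rest in the second. Without these 2 libraries, whose choice was made after their values were seen, the Q92 and Q20 comparison called 206 genes in place of 34 (1.21%), with Calb1 at 0.21 (adjusted p = 0.0480) and Rgs8 at 0.22 (adjusted p = 0.0438) among them. Neither library was a Q92 or Q20 library, and with all libraries the differences were likewise 0.21 and 0.22. The fit shares its estimate of spread over all groups of the age, and both libraries were picked as extreme in these genes. The 2 calls therefore add no evidence on Q92.

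Q20 and Q50 were each compared with wild types of their own cages, which asks what the knock-in allele changes at these lengths. At 6 months the 10 genes were within −0.12 and 0.14 for Q20 and within −0.06 and 0.05 for Q50. None was called (background 0.0117% for each). None had an unadjusted p under 0.05, against 6.43% of all genes for Q20 and 1.03% for Q50. The ranges without the far libraries were −0.03 to 0.17 for Q20 (background 0.0117%) and −0.07 to 0.13 for Q50 (background 0.0176%), with none of the 10 called. At 10 months all 10 had values below 0 in Q50, from −0.03 for Plcb4 to −0.23 for Pcp2 and Pcp4, with a median of −0.18. None was called (background 0.0529%), 6 had an unadjusted p under 0.05 (4.8% of all genes), and the lowest adjusted p was 0.935. Plcb3 had the smallest p, at −0.19 ± 0.07, and its CPM ran from 63.5 through 68.0 to 86.9 in the wild types and from 49.0 through 64.8 to 68.9 in Q50. All 8 Q50 libraries were below the wild-type mean and 4 below the lowest wild type, although the groups overlapped. The pair of libraries named above had been picked for extreme values of these same genes. Leaving them out was therefore bound to shrink most of these differences, and no conclusion is drawn from it. Without them the 10 genes ran from −0.10 to 0.03, with a median of −0.03, adjusted p of 1 and none called (background 0.0293%). Beside them all 12 oligodendrocyte genes had values above 0 (median 0.23, 0 called), and their part was not tested.

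In Q20 at 10 months 9 of the 10 genes had values below 0, from −0.20 for Itpr1 upward, and Pcp2 stood at 0.06. None was called (background 0.0117%) and 1 had an unadjusted p under 0.05 (8.82% of all genes). That one was Slc1a6, the glutamate transporter EAAT4 of Purkinje cell spines, at −0.19 ± 0.07 (adjusted p = 0.478). Its CPM ran from 156 through 168 to 179 in the wild types and from 127 through 152 to 159 in Q20, where 6 of 8 libraries lay below the lowest wild type. Aldoc showed 6 of 8 in the same place, at −0.13 ± 0.07 (adjusted p = 0.615). All 12 oligodendrocyte genes had values above 0 here too (median 0.22, 0 called), and their part was not tested.

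**Figure D2:**
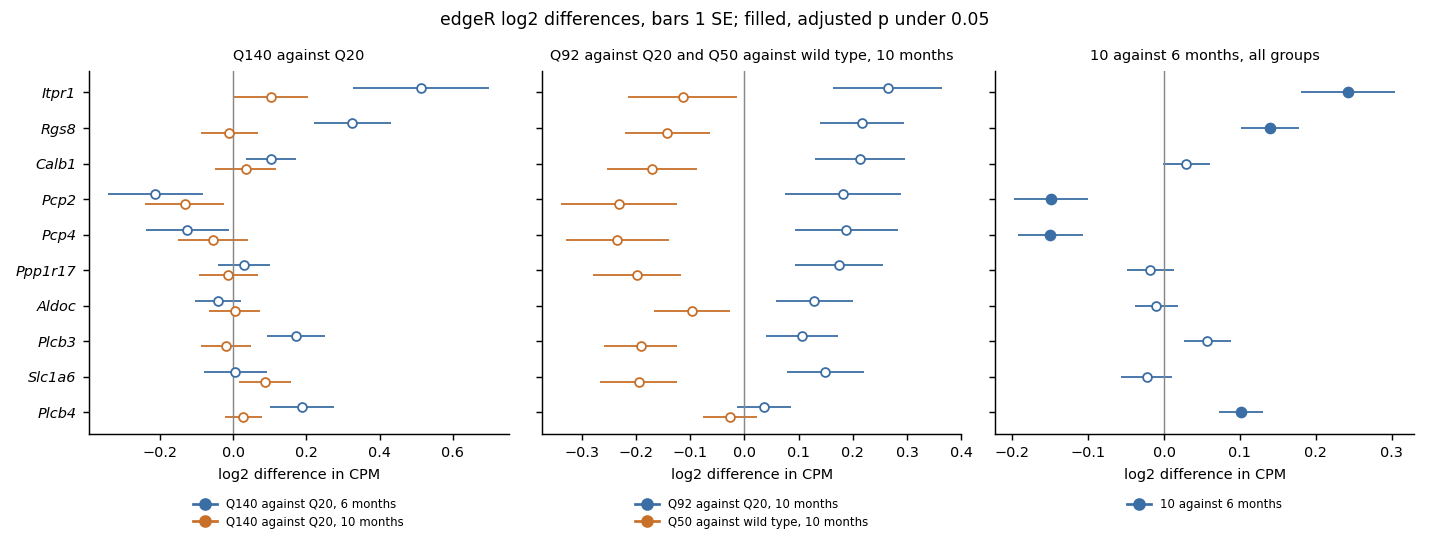
Log2 differences in CPM from edgeR with bars of 1 SE, for Q140 against Q20 at both ages (left), Q92 against Q20 and Q50 against its wild types at 10 months (middle) and 10 against 6 months over all groups (right); filled points passed an adjusted p of 0.05. Filled points appear only in the right panel, for Itpr1, Rgs8, Plcb4, Pcp2 and Pcp4, while at 10 months all 10 Q92 values lie above 0 and all 10 Q50 values below it.

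The trend over CAG length used the 32 knock-in libraries of an age and gives a slope per 100 CAG. At 6 months none of the 10 was called (background 0.406%). At an unadjusted p under 0.05 there were 4, against 27.4% of all genes. These were Itpr1 at 0.43 ± 0.15 (adjusted p = 0.112), Rgs8 at 0.26 ± 0.08 (0.105), Plcb3 at 0.14 ± 0.06 (0.135) and Plcb4 at 0.14 ± 0.07 (0.178). Without the far libraries 539 genes had a called slope (3.23%), including Itpr1 at 0.31 (adjusted p = 0.0222) and Rgs8 at 0.19 (adjusted p = 0.0196). Without Q140 female 4 alone it was 4048 genes (24.1%), including Itpr1 at 0.50, Rgs8 at 0.31, Plcb3 at 0.18 and Plcb4 at 0.18 (adjusted p from 0.0174 to 0.0421), so that the 4 of 10 are read against 24.1% of all genes. That library was the lowest of the Q140 libraries for each of these 4 genes. Leaving it out was therefore bound to raise their slopes, and no conclusion is drawn from these calls. At 10 months all slopes were above 0, from 0.01 to 0.16, none was called (background 1.16%), and the lowest adjusted p was 0.43, for Slc1a6.

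No gene of the 10 was called between the sexes. At 6 months values of males relative to females lay between 0.00 and 0.09 (background 0.876%, lowest adjusted p 0.607). None was at an unadjusted p under 0.05, against 9.91% of all genes. At 10 months the values lay between −0.12 and 0.03, while 5.87% of all genes were called. An unadjusted p under 0.05 was reached by 1 of the 10 and by 25.6% of all genes. The lowest adjusted p was 0.153, for Aldoc at −0.09 ± 0.04.

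Across ages, 5 of the 10 genes were called, 3 higher and 2 lower at 10 months, against a background in which 41.3% of all genes were called (20.4% higher and 21% lower). Itpr1 rose by 0.24 ± 0.06 (adjusted p = 0.00119), from 1395, 3852 and 5063 CPM (lowest, median, highest of 48) at 6 months to 2455, 4505 and 6070. Rgs8 rose by 0.14 ± 0.04 (adjusted p = 0.00242), from a median of 1334 to 1436 CPM. Plcb4 rose by 0.10 ± 0.03 (adjusted p = 0.00381), from 428 to 445 CPM. In the other direction, Pcp2 fell by 0.15 ± 0.05 (adjusted p = 0.0118), from a median of 238 to 219 CPM, and Pcp4 fell by 0.15 ± 0.04 (adjusted p = 0.00395), from 348 to 312 CPM. The ranges of the ages overlapped for each of these genes.

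The other 5 did not pass: Plcb3 gave 0.06 ± 0.03 (adjusted p = 0.127), and Calb1, Aldoc, Ppp1r17 and Slc1a6 lay between −0.02 and 0.03. The genes that rose were the 3 of the 10 most often low in the far libraries, 7 of which belonged to the younger age, and the 2 that fell lay high in 7 and 6 of those 8. Aldoc, which lay high in 7 of the 8, gave −0.01 ± 0.03 with age and was not called. Without the far libraries 4714 genes were called (27%), and 3 of the 10: Itpr1 at 0.13 (adjusted p = 0.0135), Plcb4 at 0.05 (0.0391) and Pcp4 at −0.10 (0.0182). Rgs8 stood there at 0.07 (0.0580) and Pcp2 at −0.09 (0.0506). The number after the letter L in the library names was spread over both ages, and with it as a term 6983 genes were called (37.4%), with the same 5 of the 10. On the FPKM scale limma gave Plcb4 0.02 (0.217) and called the other 4. Beside these, 7 of 8 microglia genes and 5 of 10 choroid plexus genes were called higher, and 7 of 12 granule neuron and 6 of 12 oligodendrocyte genes lower, at 10 months. The same counts without the far libraries were 8, 0, 7 and 3. Their part was not tested.

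Other genes of the same cells, from a list of 29 that holds receptors, channels, pumps and transcription factors, were counted in the same comparisons. In Q140 against Q20 at 6 months 0 of 29 were called and 24 had values above 0 (median 0.20). At 10 months 1 of 29 was called, where 1.99% of all genes were. This was Ebf1, a transcription factor gene, which rose by 0.27 ± 0.05 (adjusted p = 0.00243). It also had a called slope over CAG length of 0.21 ± 0.04 (adjusted p = 0.00634), where 1.16% of all genes had one. For Q92 against Q20 at 10 months 27 of 29 were above 0 (median 0.15) and for Q50 against its wild types 2 of 29 were (median −0.11), with 0 called in each. Between the sexes 1 of 29 was called at 10 months, where 5.87% of all genes were. This was Bean1, lower in males, at −0.20 ± 0.05 (adjusted p = 0.0111). Across ages 16 were called higher and 1 lower, where 20.4% of all genes were called higher and 21% lower. These counts without the far libraries were 9 higher and 1 lower, where 27% of all genes were called in either direction. The values by gene that follow are for age with the far libraries included. The calcium pump genes Atp2a2 and Atp2b2 rose by 0.20 ± 0.04 (adjusted p = 0.000161) and 0.16 ± 0.04 (adjusted p = 0.00115). Kitl, the ligand that Purkinje cells present to interneurons, rose by 0.17 ± 0.04 (adjusted p = 0.000551). The transcription factor genes Foxp2 and Rora rose by 0.16 ± 0.04 (adjusted p = 0.000763) and 0.17 ± 0.05 (adjusted p = 0.00163). Gng13, a G protein gamma subunit, fell by 0.19 ± 0.06 (adjusted p = 0.00406).

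Further stripe genes were counted apart. Ebf2, a transcription factor gene of the zebrin-negative list, was called higher at 10 months, at 0.16 ± 0.05 (adjusted p = 0.00894). Of 4 other zebrin-positive genes, 2 were called higher (background 20.4%), Gabbr2 at 0.10 ± 0.03 (adjusted p = 0.00398) and Ncs1 at 0.06 ± 0.02 (adjusted p = 0.0349). None of these 3 calls was kept without the far libraries: Ebf2 stood at 0.07 (adjusted p = 0.168), Gabbr2 at 0.06 (adjusted p = 0.0546) and Ncs1 at 0.05 (adjusted p = 0.0817). Sphk1 and Prkcd, both of the zebrin-positive list, were lower in males at 10 months, at −0.27 ± 0.07 (adjusted p = 0.0187) and −0.17 ± 0.05 (adjusted p = 0.0479), where 5.87% of all genes were called. Prkcd without the far library stood at −0.14 (adjusted p = 0.0517). In no genotype comparison was a gene of either list called.

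The zebrin-linked genes were set against Plcb4 as log2 ratios of CPM within each library, a quantity that hardly depends on library scaling. Group means of the Aldoc ratio lay between 1.8 and 2.16, of the Slc1a6 ratio between −1.59 and −1.21, and of the Plcb3 ratio between −2.79 and −2.56. Each of 4 genotype comparisons at 2 ages was tested by an exact two-sided permutation within sex, with 4900 assignments and a smallest possible p of 0.000408. None of the 24 tests passed after adjustment over them, the lowest adjusted p being 0.299. The Slc1a6 ratio at 10 months was −1.57 ± 0.12 (SD, n = 8) in Q20 and −1.42 ± 0.07 in its wild types, a difference of −0.15 (exact p = 0.0131, adjusted p = 0.299). It was −1.59 ± 0.12 in Q50 and −1.43 ± 0.19 in its wild types, a difference of −0.16 (exact p = 0.0249, adjusted p = 0.299). The Plcb3 ratio there differed by −0.17 (exact p = 0.0384, adjusted p = 0.307). In Q140 against Q20 the Aldoc ratio gave −0.23 at 6 months (exact p = 0.2, adjusted p = 0.588) and −0.03 at 10 months (exact p = 0.627, adjusted p = 0.713).

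**Figure D3:**
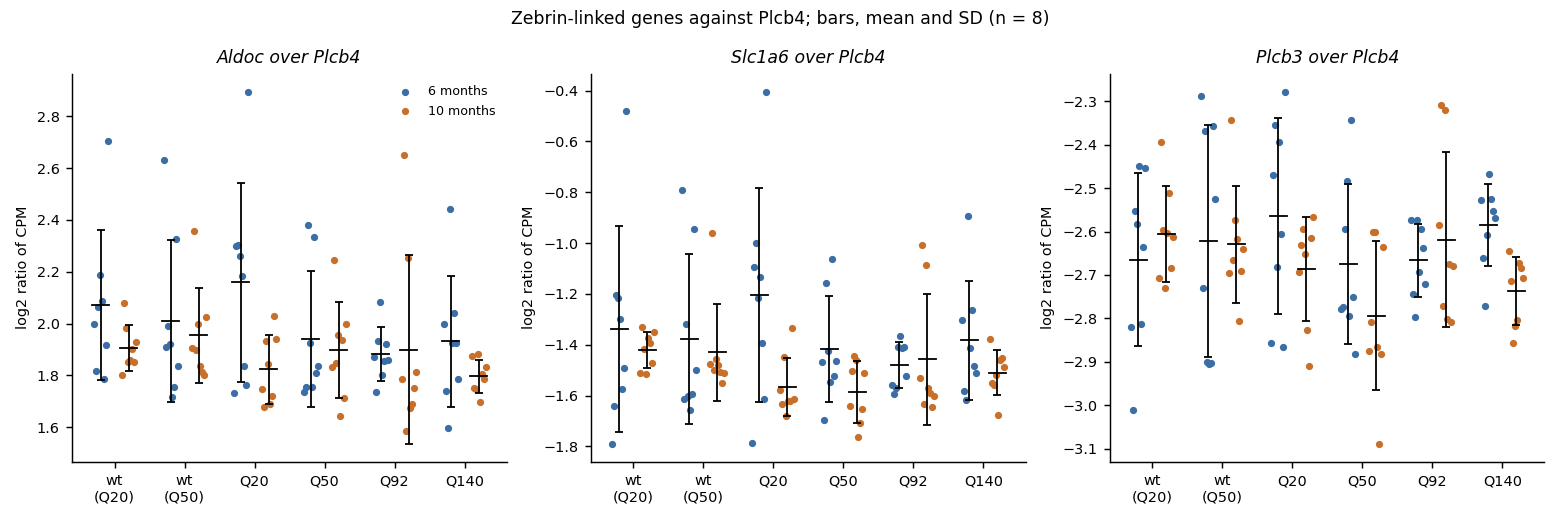
Log2 ratios of Aldoc, Slc1a6 and Plcb3 to Plcb4 in every library, by genotype and cage (wt (Q20) and wt (Q50), wild types of those cages) and age, with mean and SD (n = 8). The groups overlap throughout, and at 6 months single libraries reach 2.90 for Aldoc and −0.40 for Slc1a6 in Q20.

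Across the 48 libraries of an age, the genes were correlated as deviations from the means of their genotype, cage and sex, with 12 relations tested among the 4 stripe genes by permutation and adjusted over them. Aldoc and Slc1a6 varied together at 6 months (r = 0.82, rho = 0.81) and at 10 months (r = 0.72, rho = 0.63). Each of these had a permutation p of 1e-05, the smallest that 100000 resamples give, for r and for rho (adjusted p = 3e-05), and without the 2 libraries farthest in Aldoc r was 0.76 and 0.59. Aldoc and Plcb4 varied in opposite directions at 6 months (r = −0.72, rho = −0.66, permutation p = 1e-05 and adjusted p = 3e-05 for each; r without the 2 farthest −0.63). At 10 months that relation did not pass (r = −0.23, p = 0.113, adjusted p = 0.124; rho = −0.14, p = 0.329; without the 2 farthest −0.28).

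The correlation of Slc1a6 and Plcb4 had opposite signs at the 2 ages. At 6 months r was −0.51 (permutation p = 0.00019, adjusted p = 0.000456) and rho −0.50 (p = 0.00034), and at 10 months r was 0.37 (p = 0.0107, adjusted p = 0.0142) and rho 0.39 (p = 0.00576). On log2(FPKM + 1) the relation at 6 months did not pass (r = −0.08, permutation p = 0.584, adjusted p = 0.637). Without the 2 farthest libraries r was −0.50 and 0.33. Plcb3 and Slc1a6 gave r = 0.26 at 6 months (p = 0.0753, adjusted p = 0.0904; rho = 0.35, p = 0.015; without the 2 farthest 0.29) and r = 0.79 at 10 months (rho = 0.75, p = 1e-05 for each, adjusted p = 3e-05; without 0.72). Aldoc and Plcb3 gave r = 0.06 at 6 months (p = 0.683, adjusted p = 0.683; rho = 0.21, p = 0.149; without 0.23) and r = 0.46 at 10 months (p = 0.00123, adjusted p = 0.00246; rho = 0.43, p = 0.00227; without 0.30). Plcb3 and Plcb4 gave r = 0.42 at 6 months (p = 0.00277, adjusted p = 0.00475), where rho was 0.23 (p = 0.119, adjusted p = 0.143) and r without the 2 farthest 0.27. At 10 months they gave r = 0.40 (p = 0.00528, adjusted p = 0.00792; rho = 0.36, p = 0.0115; without 0.25).

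The far libraries entered these relations at 6 months. Without them r was −0.55 for Aldoc and Plcb4, 0.61 for Aldoc and Plcb3, 0.69 for Plcb3 and Slc1a6, and −0.16 for Plcb3 and Plcb4 (adjusted p = 0.338). At 10 months r for Aldoc and Plcb4 was 0.0 without the far library of that age, in place of −0.23. The differences between the ages were not tested.

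All 45 pairs of the 10 genes, computed after these were seen and adjusted over 90 relations, gave a median r of 0.28 at 6 months, from −0.80 for Pcp2 and Plcb4 to 0.97 for Itpr1 and Rgs8. There 22 pairs had a positive and 10 a negative r with an adjusted permutation p under 0.05. Without the 7 far libraries the median r was 0.51 and 9 pairs had r below 0. At 10 months the median was 0.71, 41 pairs were positive with an adjusted p under 0.05, and none was negative with one. With the 2 farthest libraries left out for each pair, the median r was 0.29 and 0.61. Calb1 and Ppp1r17 were tied closely at both ages (r = 0.94 and 0.97, rho = 0.92 and 0.93, adjusted p = 1.8e-05; 0.92 and 0.95 without the 2 farthest). Itpr1 and Rgs8 gave 0.97 and 0.92 (rho = 0.95 and 0.90, adjusted p = 1.8e-05; 0.96 and 0.88 without). Pcp2 and Pcp4 gave 0.93 and 0.83 (rho = 0.88 and 0.64, adjusted p = 1.8e-05; 0.90 and 0.71 without). Values of a library share its dissection, RNA and scaling.

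**Figure D4:**
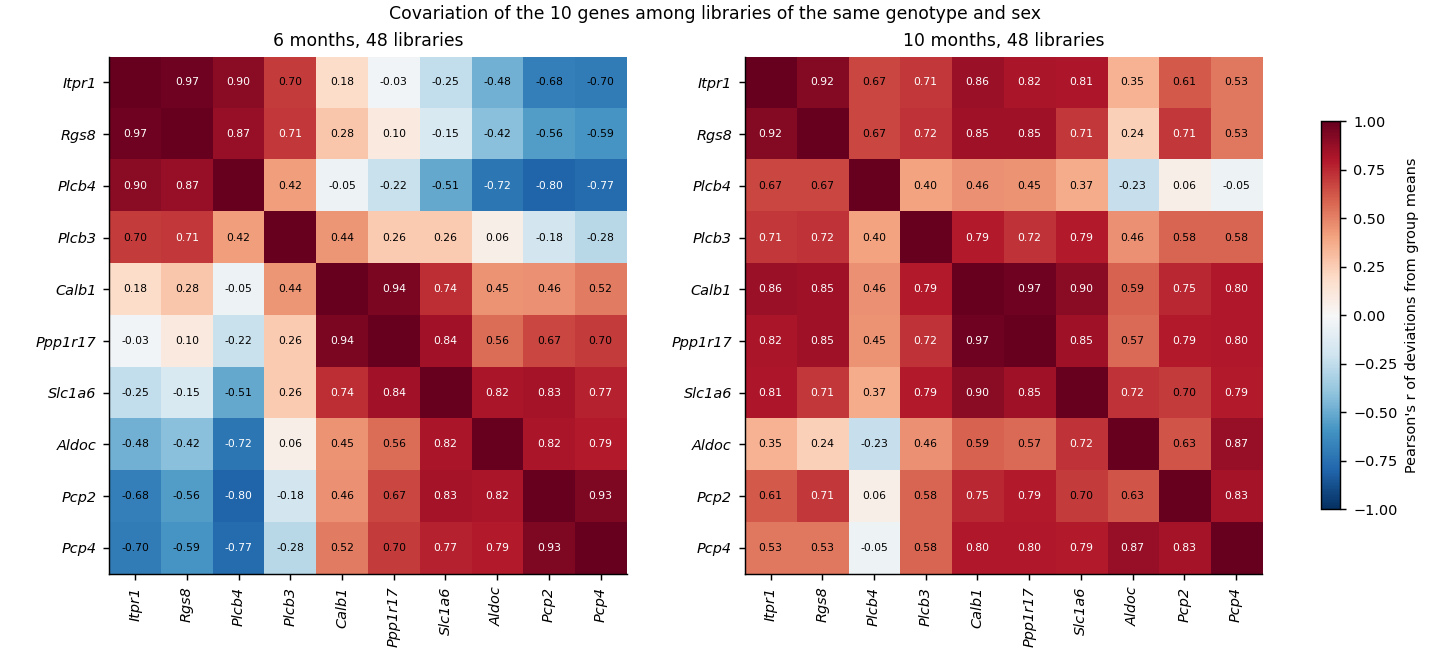
Pearson's r between the 10 genes over the 48 libraries of each age, as deviations in log2 CPM from the mean of genotype, cage and sex. At 6 months Itpr1, Rgs8 and Plcb4 form 1 block and Aldoc, Pcp2, Pcp4 and Slc1a6 another with negative values between them, while at 10 months 43 of 45 pairs are above 0.

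Genes most like the mean of the 10 were ranked among 13228 others by the lower of their correlations at the 2 ages, as a description over 48 libraries each. Inpp5a, which encodes the phosphatase that ends IP3 signals, stood first with r = 0.96 at 6 months and 0.97 at 10 months. Plxdc1 gave 0.88 and 0.91, Syndig1 0.88 and 0.93, Nsg1 0.86 and 0.93, and Dner, a Notch ligand of Purkinje cells, 0.82 and 0.96. Cep72, Fam174b, Casq2, Stac and Tspan11 made up the 10. The difference between the zebrin-linked genes and Plcb4 was followed most closely by Nbl1 (0.81 and 0.80), Sept5 (0.87 and 0.79), Pebp1 (0.94 and 0.79), Gng5, Ppp1r14b and Acot13. It was opposed most by Secisbp2l (−0.94 and −0.81), Kif1b (−0.90 and −0.81), Dnajc13, Tulp4, Rims2 and Ptprd. Ppp1r14b overlaps Plcb3 on the opposite strand by 22 exon bases.

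Merged exon length ran along with these patterns. It is the union of all annotated exons of a gene and not the measured size of the transcripts expressed. Merged exons measured 18319 bases for Itpr1, 9640 for Rgs8, 8970 for Plcb4, 6960 for Plcb3, 4846 for Calb1 and 3263 for Aldoc, then 2152 for Slc1a6, 1828 for Pcp2, 1757 for Ppp1r17 and 1026 for Pcp4 (GENCODE M21). Across the 10 genes, which are not independent replicates, Spearman's rho between exon length and the log2 difference was 0.89 for Q140 against Q20 at 6 months, 0.90 for Q92 against Q20 at 6 months and 0.96 for age. Over all genes with a length it was 0.39, 0.41 and 0.34, and medians over 4 equal-sized classes of all genes, from the shortest to the longest, were −0.12, −0.05, 0.00 and 0.09 for Q140 against Q20 at 6 months. Without the far libraries rho was 0.88 over the 10 genes and 0.36 over all genes in that comparison, and 0.99 and 0.22 for age. On the deposited FPKM scale it was 0.85 and 0.40 for Q140 against Q20. At 10 months it was 0.56 and 0.21. A length that is the same in every library would divide out of a log2 difference between groups. For age, however, Plcb4 gave 0.10 with edgeR on counts and 0.02 with limma on FPKM, so the scales differed for this gene. The lengths behind the FPKM values are not given, and the FPKM scale was not taken as a check on length. The part of length, or of RNA quality, in the values of Itpr1, Rgs8, Pcp2 and Pcp4 was not tested.

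**Figure D5:**
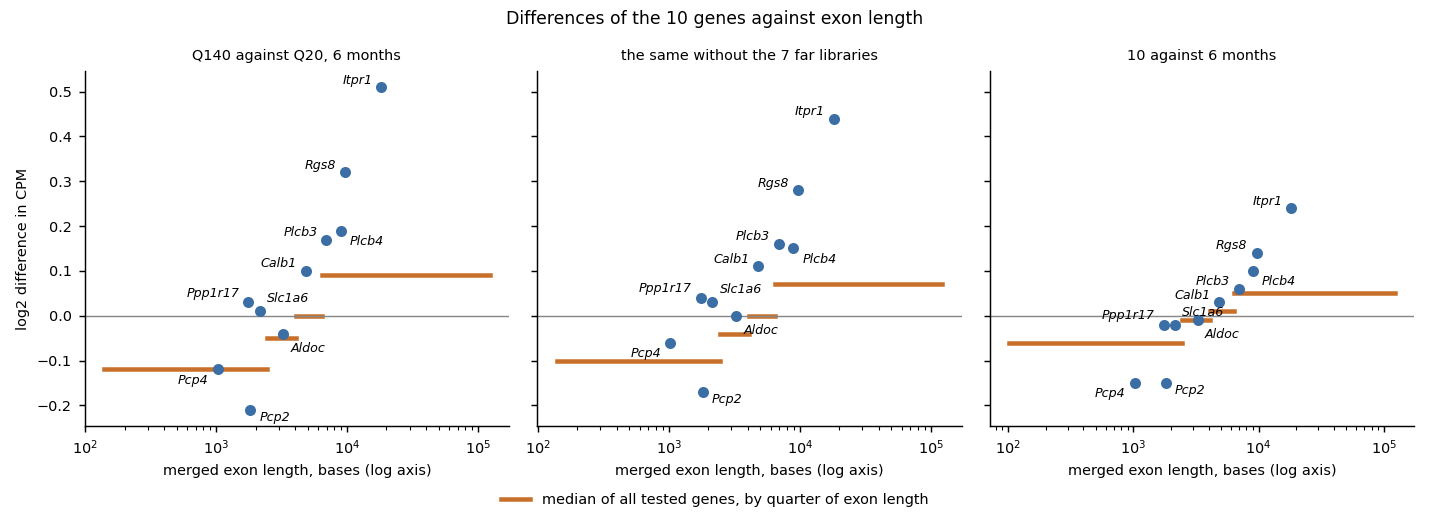
Log2 difference of each of the 10 genes against merged exon length (log axis) for Q140 against Q20 at 6 months with all libraries, the same without the 7 far libraries, and 10 against 6 months; bars show the median over all tested genes in each of 4 equal-sized classes of exon length. Itpr1, the longest at 18319 bases, lies highest in each panel and Pcp2 and Pcp4, both under 2152 bases, lowest, and the bars rise with length.

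Positions and overlaps bear on how reads were assigned, since it is not given whether counting used strand. On GRCm38, Itpr1 (ENSMUSG00000030102) lies on chromosome 6 from 108213096 to 108551109 and Rgs8 (ENSMUSG00000042671) on chromosome 1 from 153653025 to 153700323, both on the plus strand. Pcp2 (ENSMUSG00000004630) lies on chromosome 8 from 3623371 to 3625545 on the minus strand, and 941 of its 1828 exon bases overlap Pet100 on the other strand. Pcp4 (ENSMUSG00000090223, chromosome 16 from 96467606 to 96525793, plus strand) shares 243 exon bases with Igsf5 on the same strand. Overlaps were 289 exon bases for Itpr1, 70 for Rgs8 and 22 for Plcb3, all with genes on the opposite strand. Aldoc (ENSMUSG00000017390, chromosome 11 from 78322968 to 78327781) and Plcb4 (ENSMUSG00000039943, chromosome 2 from 135659011 to 136014593), both on the plus strand, had no exon overlap, and neither had Calb1 (ENSMUSG00000028222), Ppp1r17 (ENSMUSG00000002930) or Slc1a6 (ENSMUSG00000005357). The values of Pcp2 may therefore include reads of Pet100.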

How the data were processed

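Libraries were made from enriched fractions of total RNA by Illumina protocols, per the labels' protocols. The submitters' processing notes name CASAVA 1.8.2; aligner, quantifier, genome build and strand setting were each not given in the sources used here. The authors deposited a table of expected counts (estimated counts, 81.6% of them whole at a tolerance of 0) and a table of FPKM values for the same 39179 genes and 96 libraries. Of the identifiers, 37607 had a symbol and 1572 had none. No pair of libraries looked like a duplicate (highest r 0.989).

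Expected counts were rounded and tested with edgeR 4.0.16 in R 4.3.3 (quasi-likelihood F-test, two-sided, TMM factors, filterByExpr at its defaults, with 10 as the minimum count and 15 as the minimum total). Fits within an age held 48 libraries (6 groups, with sex as a term), the trend 32 knock-in libraries, and the age and interaction fit all 96. A gene counted as called where p, adjusted over all genes tested by the method of Benjamini and Hochberg, was under 0.05. Adjusted p-values of differences are from this test unless DESeq2 1.42.0 or limma 3.58.1 (log2(FPKM + 1) and log2(FPKM + 0.1)) is named. SE is the absolute log2 difference over the square root of F, and intervals span 2 SE. Log2 CPM used a prior count of 2. Alternatives were other size factors (RLE), no filter on low counts, a replicate block, the L number of the library name, and leaving out far libraries or each library in turn. Python 3.11.15 with scipy 1.17.1 gave the permutation tests. In data simulated for Q140 against Q20 at 10 months (16941 genes), 62% and 64% of genes changed by 0.3 and −0.3 log2 were called, and 100% and 96% of those changed by 1 and −1. Genes were drawn independently there, and 6 months was not simulated. These shares do not carry over to 6 months, where the within-group SD of Itpr1 was 0.431, against 0.194 at 10 months.

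The 10 genes, the gene lists and the rules for naming genes were chosen with earlier results of these data known. All 10 genes were described in every comparison; of the other Purkinje and stripe lists the called genes were named, at most 6 a comparison by smallest p. Gng13 (the 1 called lower with age), Ebf2, Gabbr2 and Ncs1 were named after their values were seen. Some genes of these lists are not reported here.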

Additional observations from a re-analysis of the deposited data

Results flagged for a closer look

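In 29 of 156 groups of 8 libraries tested, 1 library stood apart from the other 7 by a gap that is large against the range of the group; chance gives about 1 in 20, or 8. All values are log2 CPM or log2 ratios to Plcb4.

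Of these, 14 belonged to a pair of libraries at 10 months. In wild-type female 2 of the Q50 cages the high values were 10.50 for Calb1, 8.40 for Pcp2, 9.05 for Pcp4, 8.33 for Ppp1r17, 11.14 for Aldoc and 7.82 for Slc1a6. Its ratios to Plcb4 were 2.36 for Aldoc and −0.96 for Slc1a6, against −1.55 to −1.45 in the other 7. Q50 female 2 was low instead, at 9.24 for Calb1, 7.05 for Pcp2, 7.92 for Pcp4, 11.26 for Itpr1, 9.66 for Rgs8 and 6.97 for Ppp1r17, against 7.55 to 7.78 for Ppp1r17 in the others.

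Far libraries held 13 of them. Q140 female 4 at 6 months was high for Pcp4 (8.83) and low for Itpr1 (11.20, against 12.12 to 12.31 in the others), Rgs8 (10.00), Plcb3 (5.77) and Plcb4 (8.38). The wild-type male 4 of the Q20 cages at 6 months was high for Pcp4 (9.14) and low for Itpr1 (11.02) and Plcb4 (8.22), with ratios of 2.70 for Aldoc and −0.48 for Slc1a6. Pcp4 was also high in Q20 male 4 (9.21) and Q50 female 3 (8.84) at 6 months, and Plcb4 was low in Q92 female 2 at 10 months (8.49). Outside both sets, Calb1 was low at 9.56 in wild-type female 4 of the Q50 cages and Itpr1 was low at 11.63 in Q92 female 3, both at 6 months.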

How the results depend on the processing

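The calls on the 10 genes were unchanged by RLE factors, no filter on low counts, the L number as a term and DESeq2, and limma on FPKM called 4 in place of 5 across ages. L numbers were not balanced between the genotypes, and values moved with them as a term. At 6 months the highest of the 10 was then 0.22 in place of 0.35 for Q140 against wild types. For Q140 against Q20 it was 0.54 in place of 0.51. With the replicate number as a block, 0 of the 10 were called in every genotype, trend, sex and interaction comparison and 5 across ages, as without it; in no comparison did every same-numbered pair have r over 0.1 (2 to 6 of 8 pairs, with the highest median r, 0.42, for Q20 and its wild types at 6 months), so the numbers were not taken to pair libraries. Across ages 3 were called without the far libraries. Without the far libraries 2 were called in Q140 against Q20, 2 in Q140 against wild types and 2 in the trend, all at 6 months. Without the 2 libraries farthest in Purkinje genes, left out after the data were seen, 2 were called in Q92 against Q20 at 10 months. Neither library belonged to those groups, and the values of the called genes did not move. Leaving out each library in turn gave 0 to 2 calls for Q140 against Q20 and 0 to 4 for the trend at 6 months, in both cases the higher number without Q140 female 4. The Slc1a6 ratio of Q20 to wild types at 10 months ran from −0.18 to −0.13 (adjusted p 0.049 without Q20 male 3).

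Of the correlations at 6 months, without the far libraries Aldoc and Plcb3 stood at 0.61, Plcb3 and Slc1a6 at 0.69, and Plcb3 and Plcb4 at −0.16. On log2(FPKM + 1), Plcb3 and Slc1a6 stood at 0.32, Plcb3 and Plcb4 at 0.03, and Slc1a6 and Plcb4 at −0.08, and at 10 months Aldoc and Plcb4 at −0.31. The cause was not tested. Counts over all genes moved more: Q140 against Q20 at 6 months called 28 genes with edgeR, 177 with DESeq2 and 1131 without the far libraries. For Q140 against Q20 at 10 months the counts were 339, 487 and 756, with 96 with the L number as a term and 244 without the low-count filter. Between the sexes at 10 months 1000 genes were called, 622 without that filter, 331 with the L number, 1302 with the block and 531 without the 2 libraries farthest in Purkinje genes. The trend at 6 months called 68 genes, 4 with the L number, 44 with the block and 411 with DESeq2, and at 10 months 194, 51 with the L number and 609 without the far libraries. Q92 against Q20 at 10 months called 34, 1 with the L number, 6 with limma, 71 with the block and 222 with DESeq2, and Q140 against wild types 40 and 77 at the 2 ages, 23 and 19 with the L number and 292 and 169 without the far libraries. Totals differed by less than 1.5 times between libraries, and the lowest level of any of the 10 genes was 49.0 CPM, for Plcb3.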
